A study of Mus musculus with 15 samples.

Results

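The 33 genes described here make, sense or move cholesterol and make fatty acids, and their levels were examined in single cells of the mouse striatum, where antipsychotic drugs meet a dense supply of dopamine receptors. They were taken by name and fall into 7 genes of the mevalonate pathway, 11 of later sterol synthesis, 4 of sterol sensing, 5 of cholesterol transport and 6 of fatty acid synthesis. All 33 were present among the 15932 genes of the deposited count table. The 15 mice were males of the inbred strain C57BL/6J, bought at 8 weeks of age and habituated for about 1 week. Of these, 5 mice received haloperidol from implanted pellets, 5 received olanzapine in their food and 5 received placebo, each for 28 to 29 days. Drug and route of delivery cannot be told apart. Haloperidol is a typical and olanzapine an atypical antipsychotic drug.

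Cholesterol in the brain is made locally, because lipoproteins of the blood do not cross the blood-brain barrier. Acetyl-CoA is built into mevalonate and then into isoprenoid units, which squalene synthase joins and later enzymes close into lanosterol and trim to cholesterol. When sterol is low in the endoplasmic reticulum, SCAP carries the SREBP transcription factors to the Golgi for cleavage, and the freed fragments turn on synthesis genes, while INSIG1 holds SCAP back. Astrocytes are known as a source of cholesterol carried by apolipoprotein E, and oligodendrocytes use large amounts of sterol and fatty acid for myelin.

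Each mouse was a separate library of unique molecular identifiers (UMIs), which count RNA molecules, and the mice differed widely in depth, with 70 to 1172 cells and 215990 to 4235427 UMIs each. The 5477 cells analysed belonged to 7 classes deposited by the authors. Within a mouse, the UMIs of each class were summed where it had at least 10 cells, and a level is given as the gene's UMIs per 1000000 UMIs of that sum (CPM). Placebo 5 shared 110 cell barcodes with placebo 3 and 101 with placebo 2, of which 210 of 211 had the same class in both libraries, and the shared cells held a median of 0.308 and 0.328 times the UMIs in placebo 5. All other pairs of libraries shared at most 2 barcodes. Among the 149 gene and class pairs with a mean of at least 20 CPM, leaving those 211 cells out of placebo 5 changed the mean level by a factor between 0.960 and 1.04.

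Class names were checked against marker genes. Aldoc marked the astrocytes at 4465 CPM over all their cells, P2ry12 the microglia at 2998 CPM, Penk the neurons at 4366 CPM and Dlx2 the neuroblasts at 800.3 CPM. The class labelled olig precursor carried myelin genes, with Mog at 2575 CPM and the precursor gene Pdgfra at 0.745 CPM. The class labelled oligodendrocyte carried Pdgfra at 902 CPM and C1ql1 at 1255 CPM, against 15.9 CPM of Mog. Their markers therefore go against their names, and below they are called the myelin-bearing class (labelled olig precursor) and the Pdgfra-bearing class (labelled oligodendrocyte). The class other carried vascular genes, with Cldn5 at 3862 CPM and Vtn at 5289 CPM, and is called the vascular class.

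Promoter sequences were available for 26 of the 33 genes, as RefSeq windows on build GRCm38.p6 that run from 250 bases before to 50 bases after a transcription start. CCAAT, the letters bound by nuclear factor Y, which acts together with SREBP at many sterol genes, occurred on either strand in 20 of 26 genes (76.9%), against 42.5% of the 11894 genes of the table with a window. Among genes of the mevalonate pathway and sterol synthesis it occurred in 14 of 15 (93.3%). GGGCGG, the core letters of an Sp1 site, occurred in 21 of 26 genes (80.8%), against 65.9% of all genes with a window. TCACNCCAC, a form of the sterol response element, occurred in 1 of 26 genes (3.85%), against 1.42% of all genes. Windows of 3 genes are shown because the results below turn on them or because they hold the sterol motif. Hmgcs1 (plus strand, chr13:119690101-119690400) encodes the synthase that makes the precursor of mevalonate, Msmo1 (minus strand, chr8:64733529-64733828) a sterol demethylase, and Insig1 (plus strand, chr5:28071162-28071461) the retention protein. They read 5′ to 3′ along the gene, with capitals for CCAAT, for ATTGG where CCAAT lies on the opposite strand, and for TCACCCCAC, which begins at base -137 from the start of Hmgcs1.
Hmgcs1: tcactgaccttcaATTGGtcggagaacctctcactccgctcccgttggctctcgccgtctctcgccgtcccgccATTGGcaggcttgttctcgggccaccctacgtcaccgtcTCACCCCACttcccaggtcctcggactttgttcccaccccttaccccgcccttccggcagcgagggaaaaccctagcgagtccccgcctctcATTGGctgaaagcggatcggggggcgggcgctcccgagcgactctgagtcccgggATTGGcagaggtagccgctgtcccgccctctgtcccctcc
Msmo1: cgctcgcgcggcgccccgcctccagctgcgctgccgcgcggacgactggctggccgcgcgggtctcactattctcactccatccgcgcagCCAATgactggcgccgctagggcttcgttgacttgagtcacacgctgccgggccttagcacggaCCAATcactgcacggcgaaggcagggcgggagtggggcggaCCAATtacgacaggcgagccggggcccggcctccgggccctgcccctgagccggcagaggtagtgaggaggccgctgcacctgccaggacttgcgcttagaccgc
Insig1: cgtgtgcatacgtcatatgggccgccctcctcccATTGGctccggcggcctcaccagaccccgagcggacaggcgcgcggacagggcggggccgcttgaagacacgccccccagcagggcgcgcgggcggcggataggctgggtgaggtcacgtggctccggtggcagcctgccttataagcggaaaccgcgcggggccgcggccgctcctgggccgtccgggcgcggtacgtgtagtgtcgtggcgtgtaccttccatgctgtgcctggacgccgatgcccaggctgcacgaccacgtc
Capitals count 4 CCAAT matches in Hmgcs1, all on the opposite strand, 3 in Msmo1, all on the gene's strand, and 1 in Insig1, and no base belongs to 2 matches. A match describes the letters only.

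Transcripts for making cholesterol were highest in astrocytes. Summed over the 18 genes of the mevalonate pathway and sterol synthesis, astrocytes held 2179 ± 551 CPM (SD, n = 15 mice, lowest 1085, median 2153, highest 2987). The myelin-bearing class followed at 1182 ± 462 CPM (n = 9), the Pdgfra-bearing class at 824 ± 243 CPM (n = 11), neuroblasts at 784 ± 164 CPM (n = 14) and neurons at 735 ± 159 CPM (n = 15). The SDs of these last 3 classes exceed the differences between their means. The vascular class held 395 ± 49.7 CPM (n = 12) and microglia 237 ± 51.8 CPM (n = 13). The astrocyte mean was 2.97 times that of neurons and 9.20 times that of microglia. Because the deposited classes were made from the expression of these same cells, all levels by class are a description and carry no test.

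Of the 33 genes, 17 had their highest mean in astrocytes, 8 in the myelin-bearing class, 3 in the Pdgfra-bearing class, 2 in the vascular class and 1 each in microglia, neuroblasts and neurons. Among the 11823 genes of the table with at least 100 UMIs over all classes, 9.48% had their highest mean in astrocytes and 8.15% in the myelin-bearing class. In 6 of the 33 the mice of the leading class did not overlap those of the next, namely Msmo1, Srebf1 and Apoe in astrocytes, Scd1 and Scd2 in the myelin-bearing class and Npc2 in microglia, against 12.2% of those 11823 genes. Microglia had the lowest mean for 21 of the 33, against 29.1% of those genes.

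**Figure D1:**
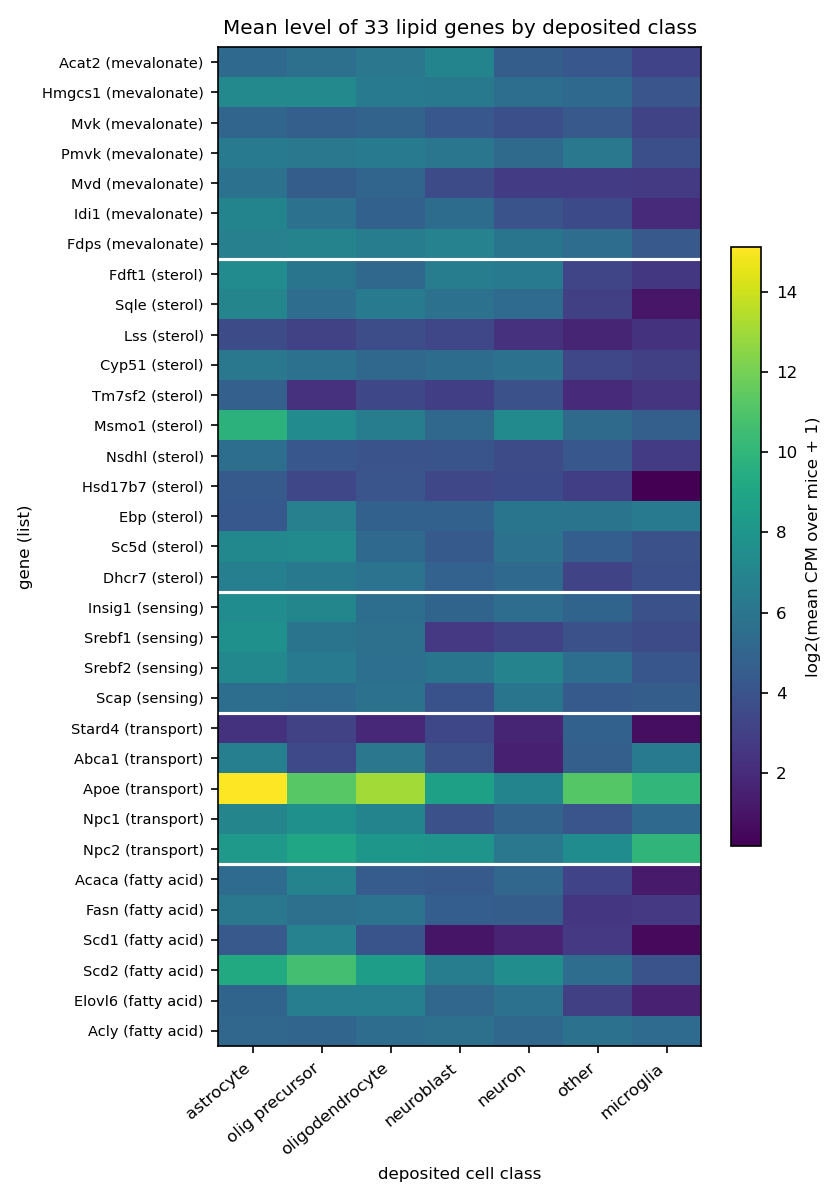
Mean level of the 33 genes (rows, grouped by list) in the 7 deposited classes (columns, deposited names), as log2 of the mean CPM over mice plus 1. Of the rows, 17 are highest in the astrocyte column and 21 are lowest in the microglia column, and Apoe reaches 35729 CPM in astrocytes.

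Of the 7 mevalonate genes, 3 had their highest mean in astrocytes. Acat2, whose product joins acetyl-CoA units, was highest in neuroblasts at 120 ± 39.5 CPM (n = 14), and above every other measured class in 14 of 14 mice, against 68.1 ± 20.1 CPM in the Pdgfra-bearing class and 38.4 ± 12.0 CPM in astrocytes. Hmgcs1 averaged 148 ± 70.0 CPM in the myelin-bearing class and 148 ± 42.4 CPM in astrocytes, with no order between them, and 47.2 ± 24.96 CPM in neurons. Fdps, the farnesyl diphosphate synthase, likewise showed no order between the myelin-bearing class (114 ± 59.0 CPM), neuroblasts (110 ± 57.3 CPM) and astrocytes (102 ± 49.8 CPM). Pmvk, a kinase of mevalonate phosphate, averaged 83.8 ± 21.7 CPM in the Pdgfra-bearing class and 82.5 ± 19.8 CPM in astrocytes.

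Idi1 and Mvd had a larger astrocyte lead, though their mice overlapped those of the next class. Idi1, the isomerase of isoprenoid units, averaged 119 ± 63.1 CPM in astrocytes, 2.20 times the 54.1 ± 44.7 CPM of the myelin-bearing class, and astrocytes led in 14 of 15 mice. Mvd, the mevalonate diphosphate decarboxylase, averaged 55.9 ± 23.0 CPM in astrocytes, 1.75 times the 31.9 ± 22.5 CPM of the Pdgfra-bearing class. It was higher in astrocytes than in that class in 8 of 11 mice. In neurons it averaged 6.11 ± 5.98 CPM, below astrocytes in 15 of 15 mice. Mvk, the mevalonate kinase, averaged only 31.9 ± 18.6 CPM in astrocytes and 30.2 ± 19.96 CPM in the Pdgfra-bearing class, which do not differ beyond their spread. Such low levels are coarse, since 1 UMI was worth 0.962 CPM in the deepest astrocyte library and 33.4 CPM in the shallowest.

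Msmo1 stood out among the sterol synthesis genes. Its astrocyte level ranged over the 15 mice between 368 and 1499 CPM with a median of 828, and averaged 881 ± 293 CPM. The next class, the myelin-bearing one, averaged 166 ± 82.8 CPM, which puts astrocytes 5.31 times higher, followed by neurons at 156 ± 64.3 CPM. Every astrocyte value lay above every value of the other classes, and astrocytes led in 15 of 15 mice. Msmo1 (chr8:64718123-64733578) alone made up 40.4% of the summed astrocyte level of the 18 genes. Without it the astrocyte sum was 1298 CPM, still 2.24 times the neuronal sum and 1.28 times that of the myelin-bearing class. After every cell was thinned to 1000 UMIs, a Msmo1 UMI was found in 46.8% of astrocytes (701 of 1498, 95% Wilson interval 44.3 to 49.3%), 14.5% of neurons and 2.66% of microglia, against 67.9%, 38.7% and 9.47% before thinning. Intervals of this kind cover counting error only.

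Of the 11 sterol synthesis genes, 8 had their highest mean in astrocytes, and apart from Msmo1 the astrocyte mice of each overlapped those of the next class. Fdft1, squalene synthase, averaged 168 ± 50.9 CPM in astrocytes, 91.1 ± 42.7 CPM in neuroblasts and 80.9 ± 25.7 CPM in neurons. Sqle, the squalene epoxidase that is a rate-limiting step, averaged 124 ± 39.6 CPM in astrocytes and 82.2 ± 55.7 CPM in the Pdgfra-bearing class, and 1.09 ± 3.70 CPM in microglia. Dhcr7, the last reductase of the pathway, averaged 97.1 ± 46.5 CPM in astrocytes and 72.6 ± 50.3 CPM in the myelin-bearing class. Nsdhl, a sterol dehydrogenase, averaged 45.9 ± 22.7 CPM in astrocytes and 18.0 ± 12.2 CPM in the myelin-bearing class. Cyp51, the lanosterol demethylase, averaged 70.4 ± 33.3 CPM in astrocytes and 54.5 ± 23.9 CPM in neurons, and was higher in astrocytes in only 8 of 15 mice. Sc5d, a sterol desaturase, averaged 151 ± 106 CPM in the myelin-bearing class and 139 ± 50.4 CPM in astrocytes. Lss, Tm7sf2 and Hsd17b7 were sparse, with 138, 219 and 218 UMIs over all classes.

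Ebp, the isomerase that shifts a ring double bond between the demethylation steps and desaturation, ran the other way. It averaged 18.6 ± 9.45 CPM in astrocytes (lowest 0, median 18.8, highest 40.5), its lowest class. It averaged 102 ± 44.2 CPM in the myelin-bearing class, 81.8 ± 19.9 CPM in microglia and 63.6 ± 27.2 CPM in neurons, and in the vascular class its median over mice was 65.6 CPM. The astrocyte mean was above the neuronal mean for 17 of the 18 synthesis genes, and Ebp was the exception, higher in astrocytes in 1 of 15 mice. All 13 microglial values of Ebp lay above all 15 astrocyte values. Thinned to 1000 UMIs, an Ebp UMI was found in 1.94% of astrocytes (interval 1.35 to 2.77%) and 9.49% of microglia (interval 7.71 to 11.6%), against 4.80% and 27.4% before thinning.

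**Figure D2:**
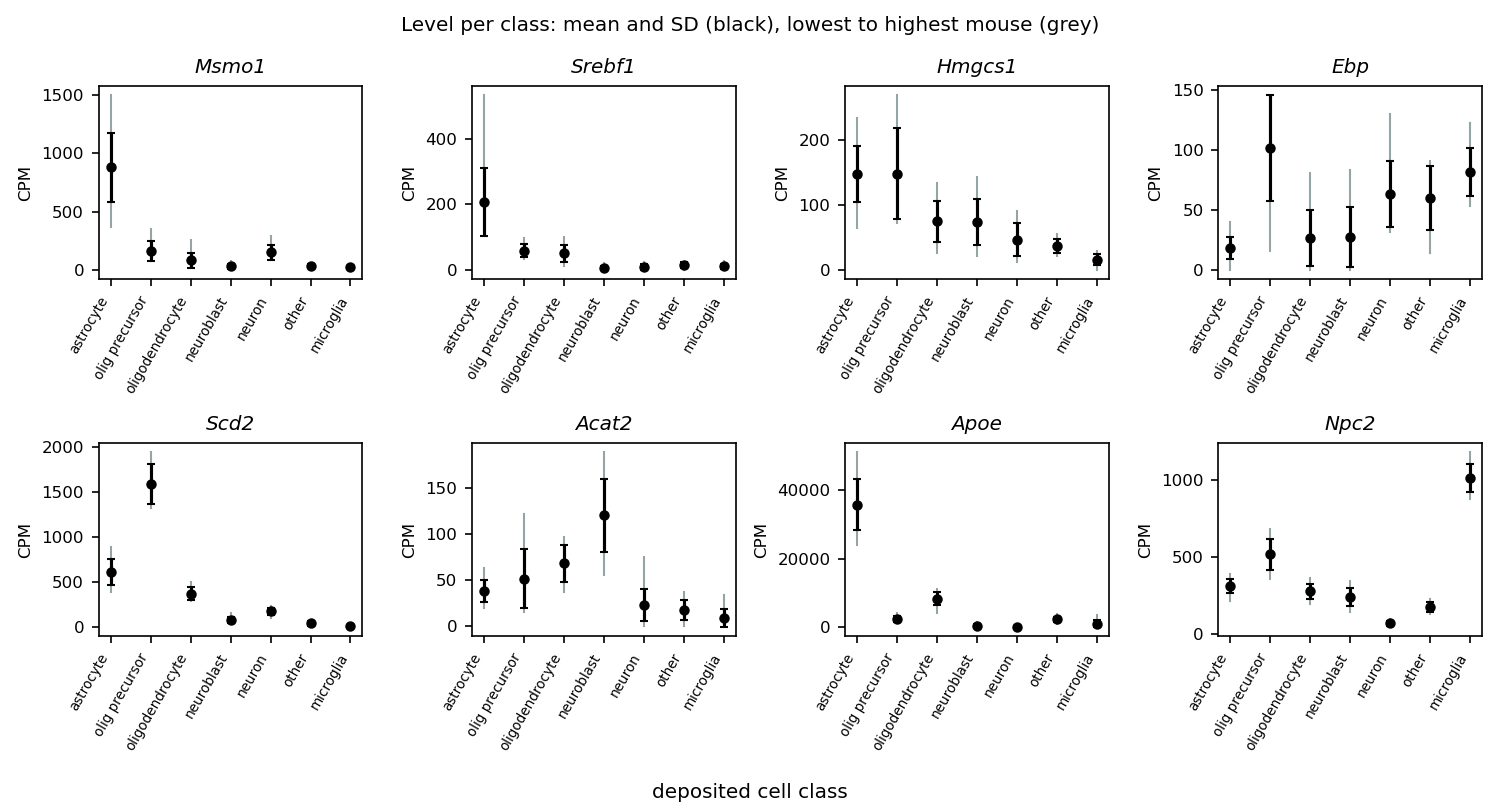
Level of 8 of the genes in each deposited class, in CPM on a linear axis of its own per panel. Black points and bars are means and SDs over mice and grey lines run from the lowest to the highest mouse. Msmo1, Srebf1 and Apoe stand apart in astrocytes, Scd2 in the class labelled olig precursor and Npc2 in microglia, while Ebp is lowest in astrocytes at 18.6 CPM.

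Sensing genes were unevenly placed. Srebf1, the SREBP gene best known for driving fatty acid synthesis, averaged 207 ± 105 CPM in astrocytes (lowest 123, median 202, highest 534), 3.51 times the 59.0 ± 21.1 CPM of the myelin-bearing class, and 8.53 ± 8.10 CPM in neurons. Astrocytes led in 15 of 15 mice. Srebf2, the SREBP gene best known for driving cholesterol synthesis, was more even, at 140 ± 42.0 CPM in astrocytes and 114 ± 27.4 CPM in neurons, which overlap. Insig1 averaged 174 ± 63.3 CPM in astrocytes and 132 ± 64.3 CPM in the myelin-bearing class, and 45.8 ± 27.4 CPM in neurons. Scap, the escort of the SREBPs, had its highest mean in neurons at 63.2 ± 27.1 CPM, overlapping the 54.5 ± 22.8 CPM of the Pdgfra-bearing class and the 47.4 ± 21.8 CPM of astrocytes.

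Transport genes split by cell class. Apoe, the gene of apolipoprotein E, averaged 35729 ± 7411 CPM in astrocytes (lowest 23872, median 37331, highest 51221), 4.25 times the 8401 ± 2001 CPM of the Pdgfra-bearing class. It averaged 2446 ± 960 CPM in the myelin-bearing class, 2286 ± 810 CPM in the vascular class and 1090 ± 908 CPM in microglia. Thinned to 1000 UMIs, an Apoe UMI was found in 12.6% of neurons, a type expected to make little of it, against 36.2% of microglia and 98.3% of the Pdgfra-bearing class (31.1%, 58.4% and 98.9% before thinning, at median depths of 3305, 3407 and 3140 UMIs per cell). Abca1, which loads cholesterol onto lipoproteins, averaged 97.4 ± 39.8 CPM in astrocytes and 77.9 ± 26.9 CPM in microglia, which overlap, and 1.77 ± 2.41 CPM in neurons. Npc2, a lysosomal carrier of cholesterol, averaged 1013 ± 89.4 CPM in microglia (lowest 874, median 1007, highest 1182), 1.96 times the 516 ± 99.1 CPM of the myelin-bearing class. Its membrane partner Npc1 did not share that order, with 206 ± 48.7 CPM in the myelin-bearing class, 126 ± 31.5 CPM in astrocytes and 38.6 ± 21.5 CPM in microglia. Stard4, a cytosolic sterol carrier, was highest in the vascular class at 27.7 ± 13.6 CPM, on 110 UMIs over all classes.

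Fatty acid synthesis genes were led by the myelin-bearing class. Their sum there was 1991 ± 255 CPM (n = 9), 2.45 times the 811 ± 168 CPM of astrocytes (n = 15), 6.11 times that of neurons and 30.5 times that of microglia. Scd2, a stearoyl-CoA desaturase, made up 79.5% of that sum. It averaged 1583 ± 221 CPM there (lowest 1322, median 1482, highest 1942), 2.58 times the 613 ± 140 CPM of astrocytes, and an Scd2 UMI was found in 76.8% of those cells after thinning (interval 72.1 to 81.0%), against 1.85% of microglia (97.4% and 6.31% before). Scd1, its paralog, averaged 112 ± 51.6 CPM there and 19.8 ± 11.5 CPM in astrocytes, a ratio of 5.62, and 2.02 ± 4.27 CPM in neurons. Acaca, the carboxylase that commits acetyl-CoA to fatty acid, averaged 117 ± 52.8 CPM in the myelin-bearing class and 41.9 ± 23.4 CPM in astrocytes, and the myelin-bearing class led in 9 of 9 mice. Elovl6, an elongase, averaged 96.6 ± 47.2 CPM in the Pdgfra-bearing class and 95.5 ± 29.6 CPM in the myelin-bearing class, against 52.8 ± 15.8 CPM in neurons and 30.7 ± 14.1 CPM in astrocytes. Fasn, fatty acid synthase, averaged 71.5 ± 31.9 CPM in astrocytes, 57.4 ± 29.6 CPM in the Pdgfra-bearing class and 51.6 ± 17.6 CPM in the myelin-bearing class, which overlap. Acly, which makes cytosolic acetyl-CoA, was nearly level, from 32.3 ± 14.0 CPM in the myelin-bearing class to 55.2 ± 28.6 CPM in the vascular class.

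The design then asks whether the drugs altered these genes. Summed synthesis levels in astrocytes were 2351 ± 772 CPM in haloperidol mice, 2060 ± 478 CPM in olanzapine mice and 2126 ± 425 CPM in placebo mice (SD, n = 5 each). Per mouse they were 2987, 2743, 1085, 2785 and 2153 CPM with haloperidol, 1502, 2390, 1905, 2696 and 1809 CPM with olanzapine, and 2208, 1997, 2105, 2749 and 1570 CPM with placebo. Haloperidol 3 was the lowest of the 15, and the 3 groups overlapped.

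**Figure D3:**
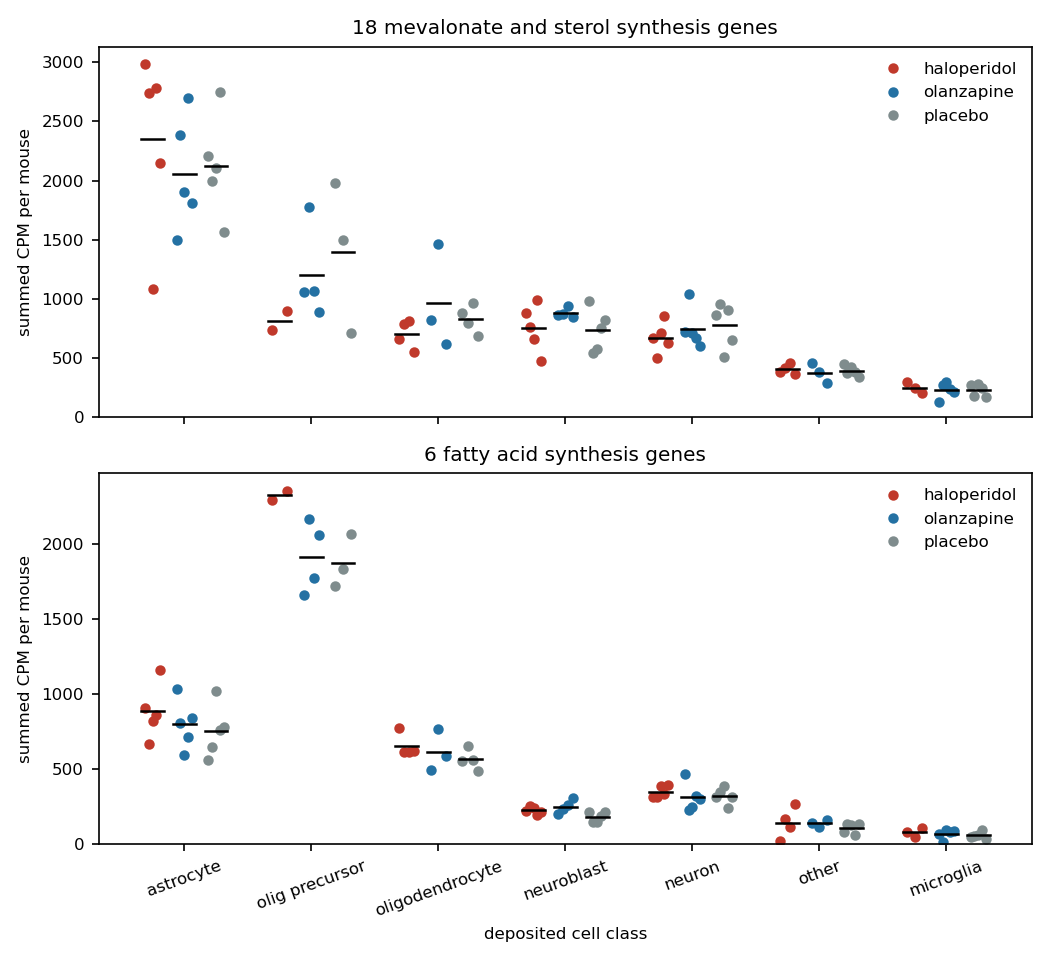
Summed CPM of the 18 cholesterol synthesis genes (top) and the 6 fatty acid synthesis genes (bottom) per mouse, by deposited class (x axis) and treatment (colour, haloperidol left, olanzapine centre, placebo right), with each group's mean as a black line. Astrocytes reach 2987 CPM for cholesterol synthesis and the class labelled olig precursor 2353 CPM for fatty acid synthesis, and in astrocytes the 3 treatments overlap in both panels.

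Gene by gene, no member passed the test in any class. Summed counts per mouse were compared with edgeR's quasi-likelihood test over all genes of a class, with Benjamini-Hochberg adjustment within the class and a threshold of 0.05, where both groups had at least 3 mice. For haloperidol against placebo, 65 gene and class pairs of 27 members in 6 classes were tested and 0 were called, against 2 of 20628 pairs over all genes (0.0097%), both in the vascular class. For olanzapine against placebo, 0 of 87 pairs of 28 members in 7 classes were called, against 10 of 23329 (0.0429%), also in the vascular class. For haloperidol against olanzapine, 0 of 65 were called, against 0 of 20628 (0%). DESeq2 also called 0 members in each of the 3 comparisons. At an unadjusted p under 0.05 there was 1 member pair with haloperidol against placebo (3.96% of all pairs), 4 with olanzapine against placebo (4.1% of all pairs) and 1 between the drugs (3.42% of all pairs). Without the cells that placebo 5 shared with other libraries, 0 members were again called, and 1 pair over all genes with haloperidol and 0 with olanzapine. The lowest adjusted p of a member by edgeR was 0.932 for haloperidol and 0.853 for olanzapine against placebo, and 0.894 between the drugs. The members tested numbered 25 in astrocytes, 22 in the myelin-bearing class, 14 in neurons, 11 in the Pdgfra-bearing class, 7 in neuroblasts and 4 each in microglia and the vascular class. Lss, Tm7sf2, Hsd17b7, Stard4 and Acly passed the filter on low counts in no class. Only 2 haloperidol mice had 10 cells of the myelin-bearing class, so haloperidol was not tested there.

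In astrocytes, the median log2 fold change of the 25 members was 0.09 for haloperidol against placebo, with 15 above 0, beside -0.02 over all 4515 genes, of which 48.3% were above 0. For olanzapine it was -0.02, with 11 of 25 above 0, beside -0.03 and 45.5% over all genes. Both comparisons use the same placebo mice. For haloperidol against olanzapine the median was 0.11, with 18 of 25 above 0, beside 0.02 and 52.6%. The 7 tested sterol synthesis genes had a median of 0.19 with haloperidol. Fits with a mouse left out repeated the filter on low counts, so the genes behind a median could change. Over the sterol synthesis genes that passed in each such fit, the median was -0.13 without haloperidol 2 and 0.52 without haloperidol 3. Elsewhere the medians with olanzapine were -0.18 for the 22 members in the myelin-bearing class (7 above 0), -0.21 for 14 in neurons (3 above 0) and 0.23 for 7 in neuroblasts (7 above 0), beside 0.01, -0.01 and -0.01 over all genes. With haloperidol they were -0.04 in neurons and -0.13 in the Pdgfra-bearing class. These medians move when single mice are left out, which can also change the members that pass the filter. With 1 mouse left out, the olanzapine median ran over -0.27 (placebo 5) to -0.055 (placebo 1) in the myelin-bearing class, -0.33 (placebo 3) to -0.14 (placebo 1) in neurons, 0.058 (placebo 2) to 0.43 (placebo 1) in neuroblasts and -0.088 (olanzapine 4) to 0.093 (placebo 4) in astrocytes. The haloperidol median ran over 0.0048 (haloperidol 1) to 0.24 (haloperidol 3) in astrocytes, -0.27 (haloperidol 1) to 0.032 (haloperidol 3) in neurons and -0.24 to -0.063 in the Pdgfra-bearing class, and that of haloperidol against olanzapine over 0.017 to 0.27 in astrocytes.

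**Figure D4:**
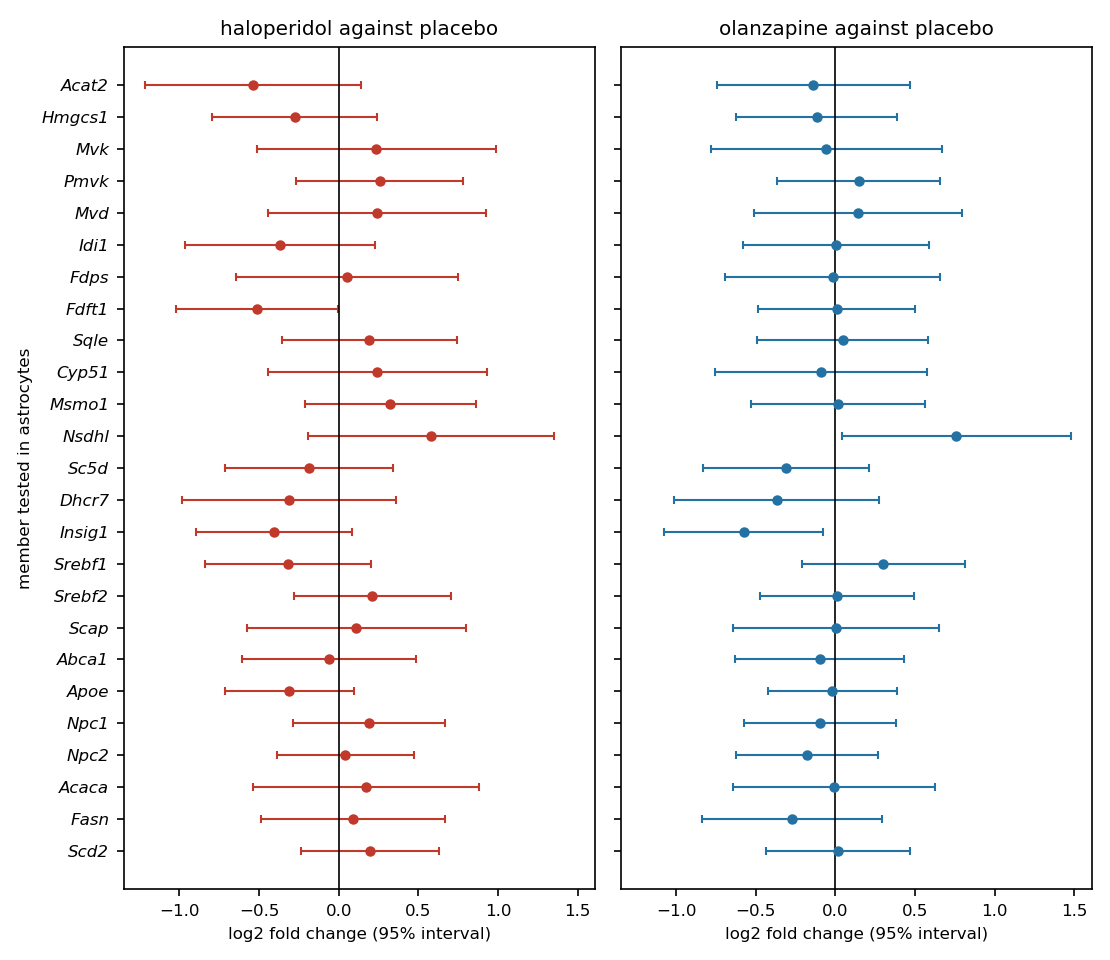
Log2 fold changes of the 25 members tested in astrocytes (rows), for haloperidol against placebo (left) and olanzapine against placebo (right), with 95% intervals from edgeR's quasi-likelihood fit. The intervals of Fdft1 with haloperidol and of Nsdhl and Insig1 with olanzapine exclude 0 before adjustment, and none of the 25 passed adjustment.

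Insig1 had the lowest unadjusted p-values, in 3 classes with olanzapine. The values below are CPM after TMM scaling over the tested genes of a class, which puts them somewhat above the plain CPM. In astrocytes, Insig1 was at 105, 115, 138, 265 and 128 CPM in olanzapine mice, against 209, 183, 318, 303 and 197 CPM in placebo mice. Only olanzapine 4 lay within the placebo range, where it passed the lowest 3 values. The log2 fold change was -0.58 ± 0.25 (SE, 95% interval -1.07 to -0.08, edgeR unadjusted p = 0.0241, adjusted p = 0.996). In neurons, Insig1 was at 0, 28.6, 25.7, 50.2 and 55.8 CPM in olanzapine mice and at 103, 74.5, 57.8, 109 and 33.3 CPM in placebo mice. All but placebo 5 lay above the olanzapine values. The log2 fold change was -0.90 ± 0.38 (interval -1.67 to -0.14, edgeR unadjusted p = 0.0216, adjusted p = 0.998), and the olanzapine mouse at 0 held 62660 neuronal UMIs, so that up to 47.9 CPM could have gone unseen.

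The myelin-bearing class gave the same sign. Insig1 was at 209, 97.8, 104 and 70.8 CPM in olanzapine mice, against 301, 160 and 144 CPM in placebo mice, with 1 olanzapine mouse inside the placebo range. The log2 fold change was -1.04 ± 0.38 (interval -1.82 to -0.26, edgeR unadjusted p = 0.0109, adjusted p = 0.9996). Without the shared cells of placebo 5, Insig1 was at -0.60, -0.97 and -1.10 in astrocytes, neurons and this class. With 1 mouse left out at a time, the ranges were -0.90 to -0.44 in astrocytes, -1.21 to -0.74 in neurons and -1.31 to -0.50 in this class. These 3 classes come from the same mice and are not independent. With haloperidol, Insig1 was at 136, 161, 133, 255 and 219 CPM in astrocytes, a log2 fold change of -0.41 ± 0.25 against placebo (edgeR unadjusted p = 0.104, adjusted p = 0.998), and at -0.42 ± 0.37 in neurons. The counts behind these values were small, 3 to 124 Insig1 UMIs per mouse in astrocytes, 0 to 42 in neurons and 7 to 51 in the myelin-bearing class.

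**Figure D5:**
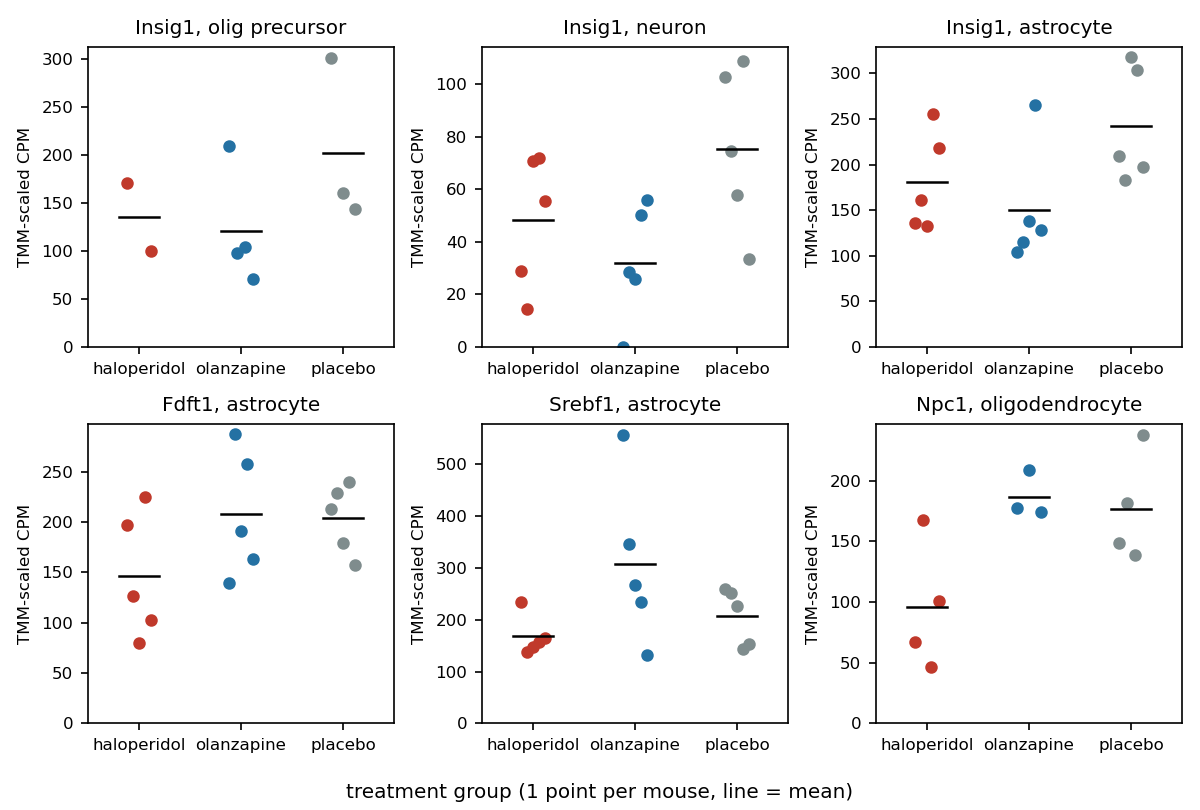
TMM-scaled CPM per mouse (points) and group mean (lines) of Insig1 in 3 classes and of Fdft1, Srebf1 and Npc1 in 1 class each (deposited names), with haloperidol left, olanzapine centre and placebo right. The groups overlap except Npc1 between haloperidol, at 46.7 to 168 CPM, and olanzapine, at 174 to 209 CPM.

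Among synthesis genes, Fdft1 in astrocytes was at 197, 127, 79.9, 225 and 102 CPM in haloperidol mice, against 213, 229, 180, 240 and 157 CPM in placebo mice. It was the only member pair of haloperidol against placebo under an unadjusted p of 0.05 (log2 fold change -0.51 ± 0.25, edgeR unadjusted p = 0.0490, adjusted p = 0.998), and the groups overlapped. Against olanzapine mice, at 139, 288, 191, 258 and 163 CPM, it was -0.52 ± 0.26. Nsdhl in astrocytes was at 34.8, 86.3, 54.4, 91.7 and 44.1 CPM with olanzapine, against 30.4, 45.8, 15.4, 73.3 and 11.0 CPM with placebo (log2 fold change 0.76 ± 0.36, edgeR unadjusted p = 0.0392, adjusted p = 0.996). With haloperidol it was 0.58 ± 0.39. Dhcr7 in the myelin-bearing class was at 20.9, 141, 37.8 and 44.2 CPM with olanzapine and at 142, 183 and 90.0 CPM with placebo (-0.88 ± 0.46, edgeR unadjusted p = 0.0698). Acat2 in astrocytes was at 37.0, 46.1, 43.6, 26.7 and 20.5 CPM with haloperidol and at 54.0, 61.0, 35.9, 70.0 and 32.9 CPM with placebo, a log2 fold change of -0.54 ± 0.34. All of these groups overlapped. In astrocytes, UMIs per mouse numbered 4 to 172 for Fdft1, 1 to 49 for Nsdhl and 1 to 38 for Acat2. Dhcr7 had 1 to 26 in the myelin-bearing class. In the shallowest astrocyte library 1 UMI was worth 33.4 CPM, so the lowest of these values are coarse. With 1 mouse left out, Fdft1 ran over -0.81 (without haloperidol 4) to -0.27 (without haloperidol 3) against placebo and -0.83 to -0.29 against olanzapine, for the same mice. Nsdhl with olanzapine ran over 0.51 (without placebo 5) to 1.35 (without placebo 4), Dhcr7 over -1.87 (without olanzapine 3) to -0.68 (without olanzapine 4) and Acat2 over -0.75 (without haloperidol 3) to -0.35 (without placebo 4).

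Srebf1 in astrocytes had the lowest p between the drugs. It was at 234, 138, 148, 156 and 164 CPM with haloperidol, against 557, 345, 266, 234 and 132 CPM with olanzapine, while placebo mice held 260, 252, 226, 143 and 153 CPM. The log2 fold change of haloperidol against olanzapine was -0.62 ± 0.27 (edgeR unadjusted p = 0.0254, adjusted p = 0.999), and the groups overlapped. Srebf1 had 12 to 240 UMIs per mouse in astrocytes. Scap in neurons was at 182, 28.6, 87.7, 61.7 and 55.4 CPM with haloperidol and at 75.4, 42.9, 54.3, 55.7 and 69.3 CPM with olanzapine, a log2 fold change of 0.48 ± 0.32 with the highest and the lowest of the 10 mice both on haloperidol, and 0.16 without haloperidol 1.

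Of the transport genes, Npc1 in the Pdgfra-bearing class was at 67.0, 168, 46.7 and 101 CPM with haloperidol, against 177, 209 and 174 CPM with olanzapine. These mice did not overlap, which was so for 1 of 65 member pairs in this comparison (2.4% of all pairs, and 4.59% in this class), for 0 of 65 with haloperidol against placebo (1.9% of all pairs) and for 0 of 87 with olanzapine against placebo (2.86% of all pairs). Its log2 fold change was -0.72 ± 0.37 (edgeR unadjusted p = 0.0577, adjusted p = 0.987). Against placebo mice, at 149, 182, 139 and 238 CPM, it was -0.68 ± 0.34. With 1 mouse left out, Npc1 ran over -1.35 (without haloperidol 3) to -0.47 (without haloperidol 4) against olanzapine and -1.30 to -0.42 against placebo, for the same mice. Npc1 had 2 to 39 UMIs per mouse in this class. Apoe in astrocytes was at 39214, 43025, 33265, 30915 and 24619 CPM with haloperidol, against 48635, 47633, 42389, 42861 and 30524 CPM with placebo. Its log2 fold change was -0.31 ± 0.20 (edgeR unadjusted p = 0.131, adjusted p = 0.998). Apoe outside astrocytes turned on single mice. In microglia it was at 1144, 530 and 4099 CPM with haloperidol, against 803, 589, 1375, 467 and 616 CPM with olanzapine, which gives 1.28 ± 0.68.

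In neurons, Apoe was at 134, 57.2, 133, 89.1 and 11.1 CPM with haloperidol, at 56.5, 57.2, 780, 75.3 and 93.4 CPM with olanzapine and at 164, 43.5, 81.0, 174 and 117 CPM with placebo. The log2 fold change was -1.34 ± 0.77 for haloperidol against olanzapine and 1.01 ± 0.76 for olanzapine against placebo (edgeR unadjusted p = 0.107 and 0.206). Both turned on olanzapine 3, and without it they were 0.28 and -0.62. The summed level of the 7 astrocyte markers in neurons was 74.8 to 236 CPM with haloperidol, 83.0 to 251 CPM with olanzapine, the highest in the same mouse as Apoe, and 86.9 to 192 CPM with placebo, and their part in the result was not tested. In neuroblasts, Apoe was at 258, 311, 693, 203 and 89.8 CPM with haloperidol, against 111, 406, 910 and 1985 CPM with olanzapine (log2 fold change -1.41 ± 0.84, edgeR unadjusted p = 0.123). The astrocyte markers summed to 72.2, 204, 333 and 873 CPM in the same olanzapine mice and to 141 to 354 CPM in haloperidol mice. Placebo neuroblasts held 674, 140, 73.2, 1158 and 222 CPM of Apoe and 43.1 to 382 CPM of the markers.

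Fatty acid synthesis genes gave no member pair under an unadjusted p of 0.05. Scd2 in neuroblasts was closest, at 66.5, 106, 113 and 208 CPM with olanzapine and 97.5, 56.1, 91.5, 109 and 67.9 CPM with placebo (log2 fold change 0.55 ± 0.31, edgeR unadjusted p = 0.0914). In the same class Npc2 was at 421, 338, 404 and 303 CPM with olanzapine, against 381, 210, 311, 177 and 259 CPM with placebo (0.35 ± 0.20). Cycling markers in neuroblasts summed to 505 to 1886 CPM in olanzapine mice and 57.5 to 1523 CPM in placebo mice. The astrocyte markers of these olanzapine mice, given above for Apoe, rank the 4 mice in the order of Scd2 but not of Npc2. In placebo mice the markers and Scd2 were ordered differently. The markers were lowest in placebo 3, at 43.1 CPM, where Scd2 was at 91.5 CPM. Placebo 2 had the lowest Scd2, at 56.1 CPM, with markers at 221 CPM. Mean levels in astrocytes were 7.18 times those in neuroblasts for Scd2 and 1.30 times for Npc2. The part of neither marker list was tested.

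The pairs that follow, also among the lowest p of their class, were each at an edgeR unadjusted p above 0.1 and with overlapping mice. In neurons, Msmo1 was at 115, 129, 180, 223 and 111 CPM with haloperidol, against 288, 286, 150, 141 and 150 CPM with placebo, a log2 fold change of -0.35 ± 0.30 and 2 placebo mice stood above every haloperidol mouse. In neuroblasts, Fdps averaged 104 ± 53.5 CPM with haloperidol and 145 ± 47.4 CPM with placebo (SD, n = 5 each, log2 fold change -0.47 ± 0.35), and Fdft1 averaged 136 ± 65.8 CPM with haloperidol and 83.5 ± 38.3 CPM with placebo (0.46 ± 0.36), the opposite sign to that of Fdft1 in astrocytes. Whether the 2 classes differ for Fdft1 was not tested. In the Pdgfra-bearing class, Abca1 was at 67.0, 26.5, 93.5 and 60.8 CPM with haloperidol, against 64.8, 160, 55.5 and 119 CPM with placebo (-0.77 ± 0.51). There, Fdps averaged 159 ± 100.4 CPM with olanzapine (n = 3) and 102 ± 35.1 CPM with placebo (n = 4, 0.39 ± 0.37), and Hmgcs1 averaged 82.6 ± 9.52 CPM with olanzapine and 106 ± 16.6 CPM with placebo (-0.35 ± 0.39). Apoe in that class was at 12330, 10527, 9084 and 5148 CPM with haloperidol, against 14495, 12989 and 8453 CPM with olanzapine (-0.37 ± 0.23).

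Microglia and the vascular class, had 4 testable members each. Ebp, one of the few synthesis genes with a clear level in microglia, was at 105, 59.7 and 79.5 CPM there with haloperidol, at 73.0, 88.3, 121, 90.4 and 62.9 CPM with olanzapine and at 99.6, 86.0, 142, 108 and 82.1 CPM with placebo. Its log2 fold change with haloperidol was -0.33 ± 0.31 against placebo and -0.22 ± 0.30 against olanzapine. Abca1 in microglia was -0.11 ± 0.27 with olanzapine against placebo, and Apoe was -0.65 ± 0.62. In the vascular class, Ebp was 0.31 ± 0.43 and Npc2 -0.17 ± 0.24 with haloperidol against placebo, and Apoe was -0.29 ± 0.36 and Npc2 -0.12 ± 0.25 with olanzapine against placebo. Both of these turned sign with doublets kept, Apoe to 0.35 and Npc2 to 0.000880, and Apoe was 0.21 with endothelial cells only. Between the drugs, Pmvk was 0.26 ± 0.38 and Ebp 0.22 ± 0.48 there. Mural markers of the vascular class summed to 8887 to 15276 CPM in haloperidol mice, 15249 to 21072 CPM in olanzapine mice and 7757 to 12884 CPM in placebo mice, and their part in these values was not tested.

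A wider list of 32 lipid genes outside the 33, of which 31 were in the table, also gave 0 calls by edgeR and by DESeq2 in the 3 comparisons. Of its 67 tested pairs with haloperidol, 25 were above 0 and 42 below, and of 76 with olanzapine 29 were above and 47 below. These pairs repeat the same genes and mice across classes and carry no test of direction. Over all genes in astrocytes, too, more lay below 0 than above in both comparisons. Fabp7, a brain fatty acid binding protein, had the lowest p, in astrocytes. Its level over all mice was highest in the Pdgfra-bearing class, at 822 ± 167 CPM, against 164 ± 68.7 CPM in astrocytes. In astrocytes it averaged 156 ± 19.9 CPM with haloperidol and 262 ± 52.1 CPM with placebo (SD, n = 5 each, log2 fold change -0.70 ± 0.23, edgeR unadjusted p = 0.00390, adjusted p = 0.998). With olanzapine it averaged 124 ± 61.9 CPM (-0.80 ± 0.23, edgeR unadjusted p = 0.00116, adjusted p = 0.996). Its mice overlapped in neither comparison, beside 0.819% and 0.598% of all genes in astrocytes. Elovl1, a fatty acid elongase, averaged 34.1 ± 13.7 CPM in astrocytes with haloperidol and 62.9 ± 16.8 CPM with placebo (-0.79 ± 0.34, edgeR unadjusted p = 0.0224, adjusted p = 0.998). Ggps1, which makes geranylgeranyl diphosphate, averaged 74.5 ± 18.1 CPM in neurons with olanzapine and 48.3 ± 20.6 CPM with placebo (0.70 ± 0.34, edgeR unadjusted p = 0.0480, adjusted p = 0.998). Between the drugs, Abcg1, a sterol exporter, averaged 248 ± 102 CPM in the Pdgfra-bearing class with haloperidol (n = 4) and 147 ± 28.4 CPM with olanzapine (n = 3), a log2 fold change of 0.73 ± 0.35 (edgeR unadjusted p = 0.0439, adjusted p = 0.987), followed by Elovl5 in that class at -0.90 ± 0.48 and Thrsp in microglia at -0.61 ± 0.34. Insig2, the paralog of Insig1, averaged 68.0 ± 27.8 CPM in astrocytes with olanzapine and 79.5 ± 17.8 CPM with placebo (-0.54 ± 0.27, edgeR unadjusted p = 0.0546).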

How the data were processed

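Single-cell libraries of dissociated striatum, 1 per mouse, were analysed from 15 mice. The authors deposited 1 table of UMI counts per gene and cell, 15932 genes by 5581 cells, with lines that give each cell's mouse, drug and class. Cell Ranger, Seurat and the mm10 build were used, per the submitters' processing notes, with versions not given in the sources used here. Deposited cells held at least 501 genes and 621 to 40783 UMIs.

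Cells over 20% mitochondrial UMIs (23) and doublets called per mouse by Scrublet in scanpy 1.11.5 (81, or 1.45%, of which 38 came from the 128 cells of olanzapine 2) were removed, which left 5477 cells with 18261763 UMIs. Counts were summed per mouse and class with at least 10 cells. In each class, edgeR 4.0.16 (R 4.3.3) fitted the 3 groups together, after filterByExpr and TMM scaling, with a two-sided quasi-likelihood F test in its robust form, and p-values were adjusted over all genes of a class and comparison. DESeq2 1.42.0 was an alternative. The edgeR fit was tested on simulated astrocyte counts, and DESeq2 was not. Levels by class are plain CPM, and levels by drug are TMM-scaled CPM. UMIs count 3′ ends and were not scaled by gene length. Shares of cells were taken after thinning to 1000 UMIs, which left out 307 shallower cells, with 95% Wilson intervals.

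The labels name no batch, and give the numbers 1 to 4 to mice on a drug only, namely haloperidol 1 and 2 and olanzapine 1 and 2. These mice also had the fewest cells, 70 to 122 each, against at least 165 in every other mouse. Depth was therefore not balanced between drug and placebo mice. Summed over all classes, mice of a group gave a chi-square of 3.00 to 23.7 per degree of freedom over 30 pairs. That value treats UMIs as separate draws, although they come grouped in cells and class makeup differs between mice. It therefore cannot show that mice differ beyond the sampling of cells. Each library was counted as a replicate because the labels give it to a separate mouse. The members, lists, tests and alternatives were chosen with earlier results of these data known. Named in the drug comparisons are the 2 members with the smallest p per class and comparison, of which those with the 6 smallest p at 20 CPM or more get values per mouse, and the 3 other lipid genes with the smallest p per comparison. One of these is not reported here.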

Additional observations from a re-analysis of the deposited data

Results flagged for a closer look

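Of 43 groups of 4 or more mice examined, 4 held 1 mouse far from the others, where chance flags about 1 in 20 groups. Insig1 in astrocytes of olanzapine 4 was at 265 CPM, against 105 to 138 CPM in the other 4 olanzapine mice. Srebf1 in astrocytes of haloperidol 1 was at 234 CPM, against 138 to 164 CPM in the other 4 haloperidol mice. Apoe in neurons of olanzapine 3 was at 780 CPM, against 56.5 to 93.4 CPM in the other 4 olanzapine mice. The summed level of the 18 synthesis genes in neurons of olanzapine 2, the mouse with 38 doublet calls, was 1044 CPM, against 607 to 718 CPM in the other 4.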

How the results depend on the processing

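Of the 33 genes, 0 were called under every alternative and with any 1 mouse left out. Over all genes, haloperidol against placebo (2 calls) gave 10 with no filter on low counts, 1 with only the 2 groups fitted, 1 without the shared barcodes of placebo 5, and 0 with at least 20 cells per mouse, with all cells summed, with the vascular class limited to endothelial cells or with adjustment over all classes together. Olanzapine against placebo (10 calls) gave 70 with no filter, 17 with DESeq2, 19 with at least 20 cells, 18 with only the 2 groups, 18 without the mice numbered 1 to 4, 5 with doublets kept, 2 with endothelial cells only, and 0 with all cells summed, without shared barcodes or with adjustment over all classes. Haloperidol against olanzapine (0 calls) gave 8 with no filter. With 1 mouse left out, these 3 counts ran over 0 to 2, 0 to 19 and 0 to 1. The cause of these shifts was not tested.

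Of 1173 alternative values of the 50 named gene and class pairs, 1164 kept their sign. That count includes the adjustment over all classes together, which leaves every fold change as it was. It also includes fits that dropped a mouse of the group not compared. The share that kept their sign is therefore not a measure of stability. Apoe in neurons reversed without olanzapine 3, to 0.28 for haloperidol against olanzapine (lowest -1.61) and to -0.62 for olanzapine against placebo (highest 1.28). Apoe in microglia reversed without haloperidol 5, to -0.54 for haloperidol against placebo (highest 1.06). Ebp for haloperidol against olanzapine ran over -0.48 to 0.080 in microglia and -0.13 to 0.57 in the vascular class, and Abca1 in microglia for olanzapine against placebo over -0.23 to 0.049, each with 1 mouse left out. In the vascular class with olanzapine, Apoe reversed to 0.35 with doublets kept and 0.21 with endothelial cells only, and Npc2 to 0.000880 with doublets kept.

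Median log2 fold changes moved by more than the spread in these cases. In each of them the filter on low counts was repeated or left out. A median can therefore cover other members than in the main fit. Sterol genes in astrocytes went to -0.26 with no filter and -0.20 without mice 1 to 4 for haloperidol against placebo (-0.13 to 0.52 with 1 mouse left out), and to -0.24 and -0.22 for haloperidol against olanzapine. Mevalonate genes in astrocytes went to -0.27 without mice 1 to 4 for haloperidol against olanzapine. With no filter, the median over members in microglia went to 0.29 with haloperidol and 0.29 with olanzapine against placebo. It was then taken over every member with a UMI in the fit, whereas the main fit tested 4 in microglia. In neuroblasts without cycling cells, the median over the members that passed the filter again went to 0.55 with haloperidol and 0.91 with olanzapine. These were not the same set as the 7 members of the main fit, so the values do not show a shift of those 7. In the vascular class for haloperidol against olanzapine, the median went to -0.35 with doublets kept and -0.33 with endothelial cells only. In fits with 1 mouse left out, a group may hold 2 mice. No paired analysis was possible because the labels number the mice 1 to 15 across the groups and share no replicate number between them. Depth limits the sparse members most, and Lss, Tm7sf2, Hsd17b7 and Stard4 could be tested in no class. Acly also passed the filter on low counts in no class, although its means ran over 32.3 to 55.2 CPM by class.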
